A study of Homo sapiens with 8 samples.

Results

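The genes described here are 45 genes of the cell cycle and of DNA replication, taken by name from the 28518 gene rows of a table of read counts. They are 24 G2/M genes, which act in G2 and mitosis, and 21 G1/S genes, which act at the entry to S phase and in the copying of DNA. All 45 were in the table and all 45 passed the filter on low counts that left 14834 genes for testing. The cells were HaCaT keratinocytes, an immortalised human skin line, in which CARD14, a scaffold protein of NF-kappaB signalling, had been knocked out. Each 10 cm dish received 9 ug of plasmid and fresh medium 2 h later, and cells positive for GFP were sorted at 24 h. The plasmid encoded CARD14 joined through a self-cleaving peptide to eGFP, as the variant R820W, N737H or I593T or as the wild type (WT), so the knockout and the sort were common to all 4 groups. CARD14 was thus expressed from a plasmid for a short time, in 1 immortalised line. The 2 libraries of a group carry the letters A and B. Independent experiments are mentioned in the series text, but no label links a letter to one of them, so a p-value measures the spread among these libraries, which may be technical.

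A cell that divides passes from G1 through S phase and G2 into mitosis. Passage into S phase needs D-type and E-type cyclins with their kinases, which release E2F factors from the RB protein, and E2F then drives genes for origin licensing, the MCM helicase and the making of nucleotides. Genes of G2 and mitosis are switched on later, by B-MYB and FOXM1 acting through MuvB complexes at a promoter element called the CHR, often with CCAAT boxes bound by NF-Y. In skin, dividing keratinocytes lie in the basal layer. In a culture of cells at all phases, RNA from bulk cells shows a mixture: fewer cells in a phase and less RNA per cell cannot be told apart.

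The libraries held 17892608 to 24629860 counts, and 17836 to 21059 genes had a count, with the highest number in N737H B. Levels below are in CPM, counts relative to the library size after scaling by trimmed means of M values, with factors of 0.926 (WT B) to 1.08 (N737H B). CARD14 itself was at 1190, 444 and 500 CPM with R820W, N737H and I593T in A, against 1127 CPM with WT. In B it was at 1410, 1005 and 1394 CPM with R820W, N737H and I593T, against 978 CPM with WT. All 7 keratinocyte markers were expressed, KRT14 at 874 to 1551 CPM and TP63 at 297 to 501 CPM. No fibroblast marker of 5 passed the filter, and the sum of that list was 0.693 to 1.63 CPM in B and 0.412 to 1.12 CPM in A. Of 5 leukocyte markers CD68 alone passed, at 48.2 to 82.1 CPM, and of 5 melanocyte markers 3 passed, with sums of 9.83 to 14.1 CPM in B and 8.78 to 10.5 CPM in A. TYR, a melanocyte marker, had no count in any library.

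The promoters of these genes differ in the elements named above, and 5 are shown because the G2/M and G1/S genes are described apart. Windows of 300 bases, 250 before to 50 after the start of the gene, were taken from RefSeq on GRCh38.p14 for the 35 of 45 genes that matched by symbol. On both strands they were searched for the CHR (TTTGAA), the CCAAT box (CCAAT) and an E2F site (TTTCCCGC or TTTGGCGC), which are the letters in capitals (no motif contains another). CDC20 lies at chr1:43358731-43359030 (plus strand), PLK1 at chr16:23678639-23678938 (plus), CCNB2 at chr15:59104896-59105195 (plus), MCM6 at chr2:135876394-135876693 (minus) and MCM7 at chr7:100101348-100101647 (minus). Each is written 5′ to 3′ in the direction of its gene.
CDC20: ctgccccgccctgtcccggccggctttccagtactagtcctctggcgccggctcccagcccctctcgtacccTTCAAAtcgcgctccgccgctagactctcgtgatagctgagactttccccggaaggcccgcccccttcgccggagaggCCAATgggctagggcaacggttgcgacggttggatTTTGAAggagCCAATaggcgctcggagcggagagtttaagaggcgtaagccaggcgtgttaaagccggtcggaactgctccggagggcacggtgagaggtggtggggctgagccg
PLK1: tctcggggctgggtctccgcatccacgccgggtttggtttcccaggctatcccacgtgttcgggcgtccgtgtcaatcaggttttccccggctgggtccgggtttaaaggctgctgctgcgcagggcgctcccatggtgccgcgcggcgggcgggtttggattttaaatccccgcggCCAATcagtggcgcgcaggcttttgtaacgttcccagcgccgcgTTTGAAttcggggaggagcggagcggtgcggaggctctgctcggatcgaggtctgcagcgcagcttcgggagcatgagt
CCNB2: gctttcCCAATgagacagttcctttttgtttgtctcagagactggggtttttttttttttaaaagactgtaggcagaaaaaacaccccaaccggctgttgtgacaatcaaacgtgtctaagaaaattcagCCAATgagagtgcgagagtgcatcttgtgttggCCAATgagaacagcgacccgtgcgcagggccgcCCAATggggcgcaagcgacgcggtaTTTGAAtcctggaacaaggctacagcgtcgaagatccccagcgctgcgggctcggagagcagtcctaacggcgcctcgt
MCM6: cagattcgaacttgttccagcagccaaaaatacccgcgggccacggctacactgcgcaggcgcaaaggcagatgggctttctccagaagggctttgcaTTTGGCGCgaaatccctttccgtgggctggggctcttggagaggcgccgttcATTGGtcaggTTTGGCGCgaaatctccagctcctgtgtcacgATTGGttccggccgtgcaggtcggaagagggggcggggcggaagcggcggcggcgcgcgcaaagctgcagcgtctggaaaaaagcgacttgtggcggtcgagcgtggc
MCM7: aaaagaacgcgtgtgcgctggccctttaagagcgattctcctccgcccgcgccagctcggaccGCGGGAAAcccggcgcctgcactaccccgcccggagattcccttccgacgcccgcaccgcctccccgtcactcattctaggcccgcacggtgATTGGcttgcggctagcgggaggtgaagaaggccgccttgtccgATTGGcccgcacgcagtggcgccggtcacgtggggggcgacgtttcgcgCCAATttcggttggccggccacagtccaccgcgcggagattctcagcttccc

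A CHR stood 29 bases before the start in both PLK1 and CCNB2, with a CCAAT box further upstream. CDC20 held one 65 bases before the start and another on the opposite strand. MCM6 held 2 E2F sites, and MCM7 held 1, on the opposite strand. The CHR was found in 13 of 19 G2/M promoters (68.4%) and in 1 of 16 G1/S promoters (6.25%). It was found in 15.5% of the 27056 promoters of the table and in 9.91% of the 9730 promoters that matched a gene tested here. E2F sites showed the opposite split, with 2 of 19 G2/M promoters (10.5%) and 10 of 16 G1/S promoters (62.5%), against 2.31% of all promoters. CCAAT boxes were found in 17 of 19 G2/M (89.5%) and 11 of 16 G1/S promoters (68.8%), against 35.7% of all promoters. A match describes the sequence and does not show that a factor binds there.

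The first question was whether cells with a variant plasmid differed from cells with the WT plasmid in these genes. Over the libraries of both letters none of the 45 genes passed the threshold, an adjusted p under 0.05, in any of the comparisons with WT. The background was the same, since 0 of 14834 genes passed (0%) with R820W, with N737H, with I593T and for the mean of the 3 variants by edgeR's quasi-likelihood test. At an unadjusted p under 0.05 the counts were 154 genes (1.04%) with R820W, 362 (2.44%) with N737H, 212 (1.43%) with I593T and 195 (1.31%) for the mean. Of the members, 0 reached it with R820W, 0 with N737H and 0 with I593T, and 1 reached it for the mean, CCNE2. No member passed with DESeq2 or with limma voom either. The intervals were wide: for CCNB1, cyclin B1, the 95% interval of the log2 fold change for the mean of the variants was -0.49 to 0.59.

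The G2/M genes lay slightly above WT in these averages and the G1/S genes slightly below. With R820W, 19 of 24 G2/M genes had a log2 fold change above 0 and their median was 0.071. With N737H it was 21 of 24 with a median of 0.12, and with I593T it was 15 of 24 with a median of 0.013. Among the G1/S genes, 4 of 21 were above 0 with R820W (median -0.091), 5 with N737H (median -0.080) and 9 with I593T (median -0.072). Over all genes tested 48.0%, 45.8% and 45.6% were above 0 with R820W, N737H and I593T, with medians of -0.011, -0.028 and -0.024. These counts rested on single libraries. Without WT A, 6 of 24 G2/M genes were above 0 with R820W, 11 with N737H and 6 with I593T, with medians of -0.067, -0.011 and -0.085. Without N737H A, 4 of 24 were above 0 with N737H (median -0.18), and without N737H B, 24 of 24 (median 0.36). With I593T it was 3 of 24 without I593T A (median -0.25) and 23 of 24 without I593T B (median 0.23). With R820W it was 13 of 24 without R820W A (median 0.0089) and 20 of 24 without R820W B (median 0.15).

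**Figure D1:**
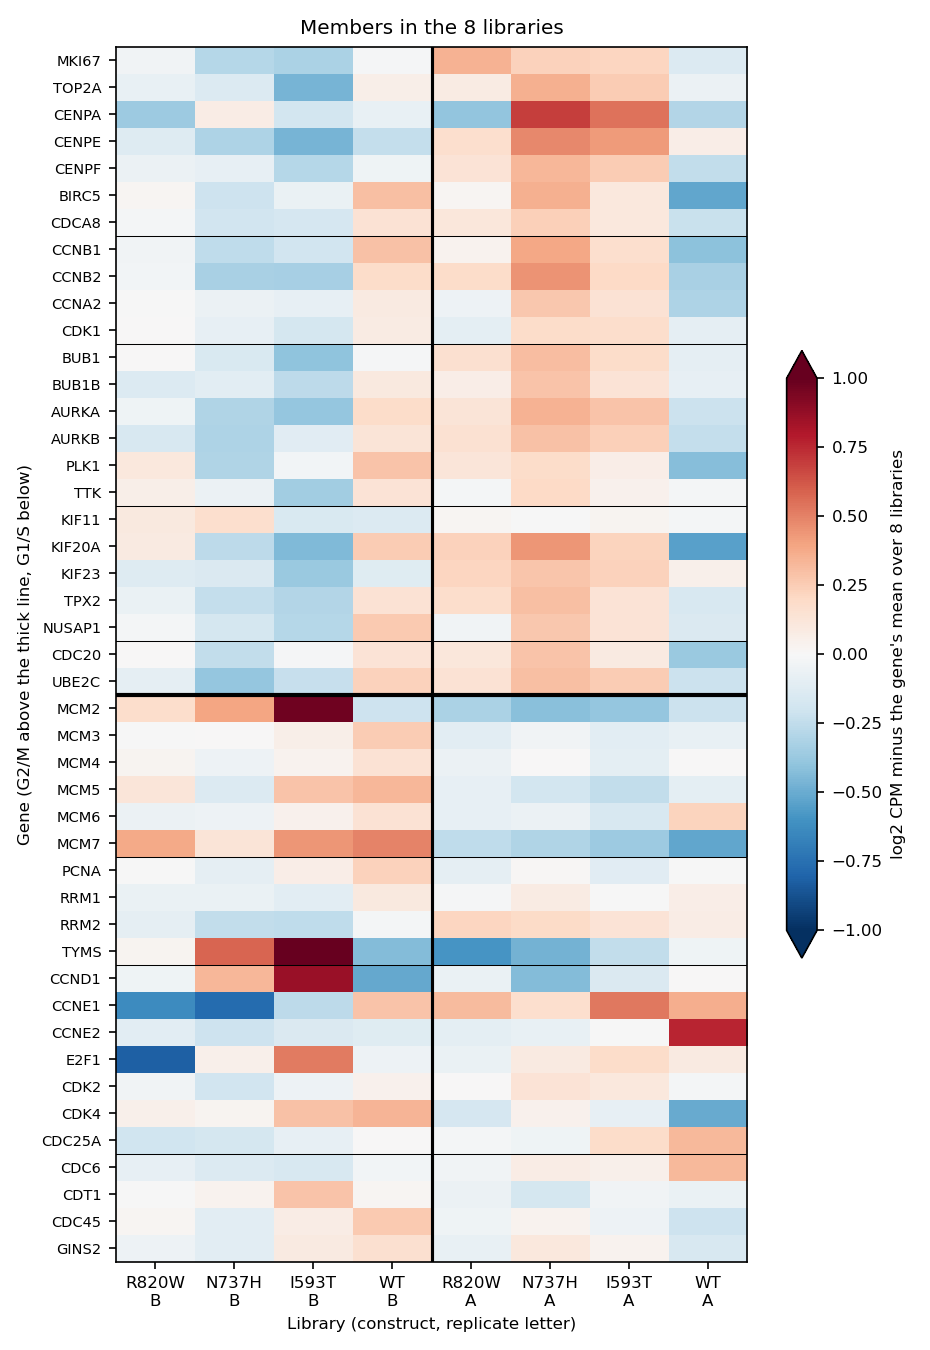
Level of each of the 45 genes (rows, G2/M above the thick line and G1/S below) in each of the 8 libraries (columns, letter B left of letter A), as log2 CPM minus that gene's mean over the 8 libraries; colours end at -1 and 1, and values beyond take the end colours. The G2/M block is mostly red in the variant libraries of A and mostly blue in WT A; in B it is mostly red in WT and mostly pale or blue in the variants, with N737H A the highest library for 21 of 24 G2/M genes.

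Within each letter the averages came apart. In A, G2/M genes were higher in the variant libraries than in the WT library: 22 of 24 with R820W, 24 of 24 with N737H and 24 of 24 with I593T, with median log2 differences of 0.34, 0.49 and 0.41. In B they were lower: 21 of 24 with R820W, 22 of 24 with N737H and 24 of 24 with I593T, with medians of -0.17, -0.31 and -0.34. The direction thus turned from higher in A to lower in B for 19 of 24 G2/M genes with R820W, 22 with N737H and 24 with I593T. Of all genes tested, 27.2%, 29.0% and 26.5% turned this way with R820W, N737H and I593T. Each letter has 1 WT library, which the 3 variants share, so their counts are not separate evidence. No label says that libraries of 1 letter were handled together, and the turn can be read only so far as they were.

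The mitotic cyclins and CDK1 come first here. CCNB1, cyclin B1, which with CDK1 drives entry into mitosis, was in A at 616 CPM (R820W), 786 CPM (N737H) and 675 CPM (I593T), against 453 CPM with WT. Its B levels were 587 CPM (R820W), 505 CPM (N737H) and 525 CPM (I593T), against 735 CPM with WT. WT was the lowest library of A and the highest of B, and over both letters the groups overlapped. CCNB2, a second B-type cyclin, gave 163, 195 and 165 CPM with R820W, N737H and I593T, against 114 CPM with WT, in A and 140.2, 115 and 114 CPM with R820W, N737H and I593T, against 163 CPM with WT, in B. CCNA2, cyclin A2, which acts in S phase and G2, was at 167, 208 and 191 CPM with R820W, N737H and I593T, against 139 CPM with WT, in A. The B libraries gave 172, 166 and 164 CPM with R820W, N737H and I593T, against 184 CPM with WT. CDK1, the mitotic kinase itself, was at 267, 325 and 322 CPM with R820W, N737H and I593T, against 268 CPM with WT, in A and 286, 270.2 and 253 CPM with R820W, N737H and I593T, against 303 CPM with WT, in B. Its R820W library in A lay at the WT level.

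Among the mitotic kinases and checkpoint genes, PLK1, which acts in centrosome maturation and spindle assembly, was in A at 306 CPM (R820W), 321 CPM (N737H) and 295 CPM (I593T), against 209 CPM with WT. Letter B had 303 CPM (R820W), 229 CPM (N737H) and 276 CPM (I593T), against 342 CPM with WT. The WT libraries were the lowest and the highest of all 8 for this gene. AURKA, the Aurora A kinase of the spindle poles, was at 376, 438 and 419 CPM with R820W, N737H and I593T, against 297 CPM with WT, in A and 334, 279 and 264 CPM with R820W, N737H and I593T, against 391 CPM with WT, in B. TTK, the MPS1 kinase of the spindle checkpoint, was at 151, 175 and 157 CPM with R820W, N737H and I593T, against 149.8 CPM with WT, in A. In B the levels were 159, 146 and 119.8 CPM with R820W, N737H and I593T, against 167 CPM with WT. The A libraries of R820W and WT were almost level for TTK. BUB1, BUB1B and AURKB, 3 further kinases or checkpoint proteins of the kinetochore and centromere, were above WT in A with all variants, and in B only BUB1 with R820W was not below WT.

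The cofactors of the anaphase-promoting complex, the ubiquitin ligase that ends mitosis, followed. CDC20, its activator, was in A at 388 CPM (R820W), 438 CPM (N737H) and 383 CPM (I593T), against 277 CPM with WT, and in B at 359 CPM (R820W), 302 CPM (N737H) and 355 CPM (I593T), against 395 CPM with WT. UBE2C, the E2 enzyme that supplies it with ubiquitin, was at 432, 483 and 466 CPM with R820W, N737H and I593T, against 338 CPM with WT, in A and 368, 299 and 334 CPM with R820W, N737H and I593T, against 460.5 CPM with WT, in B. In both genes every variant library lay above WT in A and below WT in B.

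The spindle motors and factors did so with 1 exception. TPX2, which targets and activates AURKA on the spindle, was at 588, 642 and 571 CPM with R820W, N737H and I593T, against 466 CPM with WT, in A. In B it was at 497, 439.9 and 423 CPM with R820W, N737H and I593T, against 575 CPM with WT. NUSAP1, a microtubule-binding spindle protein, was at 324, 398 and 363 CPM with R820W, N737H and I593T, against 299.9 CPM with WT, in A and 326, 294 and 271 CPM with R820W, N737H and I593T, against 396 CPM with WT, in B. KIF23, the central-spindle kinesin needed for cytokinesis, was at 262, 274 and 266 CPM with R820W, N737H and I593T, against 234 CPM with WT, in A and 207, 205 and 175 CPM with R820W, N737H and I593T, against 208 CPM with WT, in B. KIF23 in B differed little between R820W, N737H and WT, and all B libraries lay below all A libraries. KIF11, the kinesin that separates the spindle poles, was the exception: it spanned 107 to 134 CPM and was above WT in both letters with R820W and N737H. KIF20A, another kinesin of the central spindle, spanned 77.5 to 154 CPM with its lowest value in WT A.

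Genes of the centromere and of chromosome structure completed the set. TOP2A, the topoisomerase that untangles sister DNA, was in A at 551 CPM (R820W), 666 CPM (N737H) and 619 CPM (I593T), against 498 CPM with WT. Its B levels were 493 CPM (R820W), 472 CPM (N737H) and 377 CPM (I593T), against 541 CPM with WT. MKI67, the coat protein of mitotic chromosomes used as the Ki-67 proliferation marker, was at 199, 183 and 181 CPM with R820W, N737H and I593T, against 143 CPM with WT, in A and 153, 128 and 126 CPM with R820W, N737H and I593T, against 156 CPM with WT, in B. For both genes the A values of all variants stood above every B value. CENPF, a kinetochore protein, was at 309, 354 and 335 CPM with R820W, N737H and I593T, against 237 CPM with WT, in A and 270.4, 265 and 230.4 CPM with R820W, N737H and I593T, against 273 CPM with WT, in B. CENPE, the kinetochore motor that carries chromosomes to the spindle equator, was at 74.2, 92.2 and 88.4 CPM with R820W, N737H and I593T, against 69.0 CPM with WT, in A and 60.1, 53.2 and 47.8 CPM with R820W, N737H and I593T, against 55.9 CPM with WT, in B. CENPA, the histone of centromeric chromatin, was low, at 1.28 to 2.72 CPM, and stood highest in N737H A and I593T A (log2 fold change with N737H 0.60 ± 0.43, adjusted p = 1, edgeR). BIRC5 and CDCA8, both of the chromosomal passenger complex, were lowest in WT A and highest in N737H A.

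The libraries at the ends of the range were few. N737H A was the highest library for 21 of 24 G2/M genes (87.5%), against 7.59% of all genes tested. I593T B was the lowest for 14 (58.3%), against 14.5% of all genes, and WT A was the lowest for 7 (29.2%), against 18.4%. Summed over the 24 genes the level in A was 6093, 7017 and 6441 CPM with R820W, N737H and I593T, against 4914 CPM with WT. In B it was 5567, 4941 and 4787 CPM with R820W, N737H and I593T, against 6275 with WT. The ratio of G2/M to G1/S counts, which needs no scaling factor, was 1.49, 1.72 and 1.61 with R820W, N737H and I593T in A, against 1.18 with WT. In B it was 1.25, 1.12 and 0.914 with R820W, N737H and I593T, against 1.33 with WT. CARD14 was lowest in N737H A and I593T A, the libraries with the highest G2/M sums, and its part in the result was not tested. The sum of the keratinocyte markers was 6129, 4297 and 4425 CPM with R820W, N737H and I593T in A, against 4939 with WT, and 5372, 3690 and 5143 CPM in B, against 5888 with WT. Its part in the result was not tested.

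**Figure D2:**
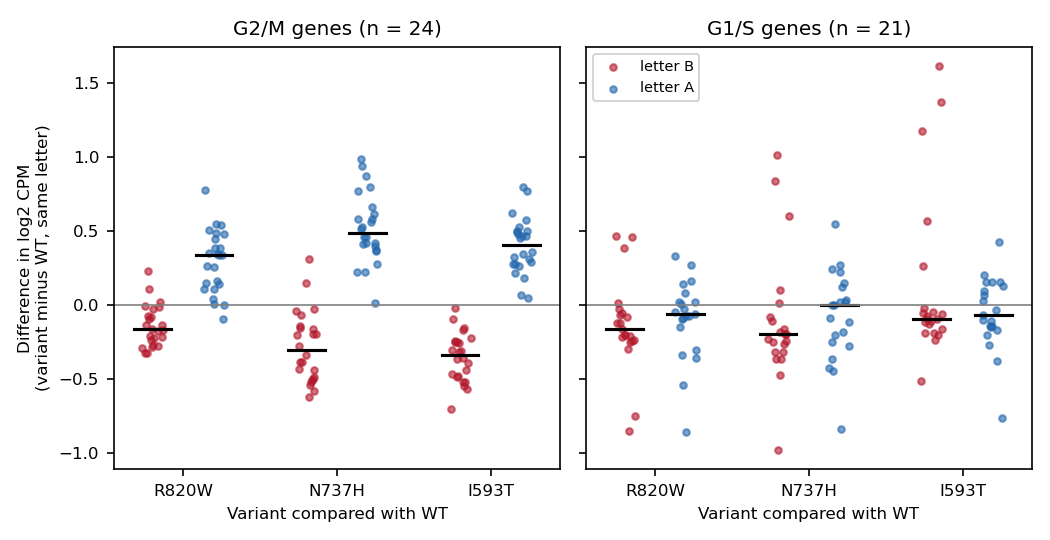
Difference in log2 CPM between each variant and WT of the same letter, 1 point per gene, for the 24 G2/M genes (left) and the 21 G1/S genes (right), with letter B in red, letter A in blue and a black line at each median. The G2/M points of A lie mostly above those of B, with medians of 0.34, 0.49 and 0.41 in A against -0.17, -0.31 and -0.34 in B, while the medians of the G1/S genes lie between -0.20 and 0.0021.

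The turn between the letters was tested as an interaction, the difference between the mean of the variants and WT in B minus the same difference in A, in an edgeR fit chosen after the data had been seen. It was negative for 23 of 24 G2/M genes with a median of -0.67, for 12 of 21 G1/S genes with a median of -0.14, and over all genes the median was 0.053. None of the 45 genes passed an adjusted p of 0.05, against 21 of 14834 genes (0.142%). The smallest adjusted p among them was 0.111, for CCNB1 (-1.06 ± 0.21) and for CCNE2 (0.79 ± 0.16). At an unadjusted p under 0.05 there were 17 G2/M genes (70.8%), all negative, and 6 G1/S genes (28.6%), 2 of them negative. Of all genes, 17.3% reached it in either direction and 9.79% in the negative direction. DESeq2 called 651 of 22949 genes (2.84%) and 15 members, 12 of them G2/M. Without the filter on low counts edgeR called 273 of 22949 genes (1.19%) and 7 members, all G2/M. The 22949 genes include those below the filter on low counts, which all 45 members passed, so these shares are not over like genes. WT had 1 library in each letter, so the spread in the interaction fits came from the 3 variants of a letter. Those variants were treated as replicates of one another, and the p-values do not measure the spread between libraries of one construct. Without R820W B, 352 of 15681 genes (2.24%) and 9 members passed, and without I593T A, 8 genes and 0 members passed.

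The B direction of R820W and N737H depended on the scaling. With library totals and no scaling factor, 11 of 24 G2/M genes were higher and 13 lower with R820W in B, likewise with N737H, and with I593T it was 1 higher and 23 lower. That choice moved the median of all genes in B to 0.14, 0.19 and 0.057 with R820W, N737H and I593T, and the G2/M medians to -0.013, -0.086 and -0.25, so that they still lay below all genes. In A, 23, 24 and 24 G2/M genes were higher under that choice, and factors by relative log expression gave the same counts as the main scaling in both letters.

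Of the 21 G1/S genes, 8 were higher than WT in A and lower in B with R820W, 10 with N737H and 7 with I593T. The 6 MCM genes encode the ring that unwinds DNA at the fork. MCM4 was at 418, 435 and 405 CPM with R820W, N737H and I593T, against 435 CPM with WT, in A and 441, 419 and 444 CPM with R820W, N737H and I593T, against 479.8 CPM with WT, in B. MCM3 was at 208, 218 and 208 CPM with R820W, N737H and I593T, against 213 CPM with WT, in A and 223, 224 and 234 CPM with R820W, N737H and I593T, against 266 CPM with WT, in B. In B the WT library was the highest for both, and in A only N737H reached or passed WT. MCM6 was at 154, 156 and 146 CPM with R820W, N737H and I593T, against 189.5 CPM with WT, in A and 157, 158 and 168 CPM with R820W, N737H and I593T, against 180.3 CPM with WT, in B. MCM6 was below WT in every variant and letter and overlapped with WT for none of them. Its log2 fold change for the mean of the variants was -0.24 ± 0.11 (adjusted p = 0.9999, edgeR). Groups that did not overlap were 6 lower and 0 higher of 21 G1/S genes with R820W, against 12.8% lower and 12.6% higher of all genes. With N737H there were 4 lower and 0 higher (all genes 12.4% and 9.92%), and with I593T 2 lower and 1 higher (11.0% and 9.61%). Among the G2/M genes 2 were higher and 1 lower with R820W, 2 higher with N737H, and 0 with I593T.

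Next are the genes of nucleotide supply and of the replication fork. PCNA, the sliding clamp of the polymerases, was at 359.8, 387 and 354 CPM with R820W, N737H and I593T, against 382 CPM with WT, in A and 381, 359.7 and 401 CPM with R820W, N737H and I593T, against 449 CPM with WT, in B. RRM1 and RRM2 are the large and small subunits of ribonucleotide reductase, which makes deoxynucleotides. RRM1 was at 380.4, 406 and 384 CPM with R820W, N737H and I593T, against 401 CPM with WT, in A and 367, 367 and 357 CPM with R820W, N737H and I593T, against 411 CPM with WT, in B. RRM2 was at 396, 392 and 376 CPM with R820W, N737H and I593T, against 359.6 CPM with WT, in A and 321, 288 and 287 CPM with R820W, N737H and I593T, against 337 CPM with WT, in B. In B the WT library was the highest for all 3 genes among the B libraries.

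TYMS, thymidylate synthase, which makes dTMP, varied more. In A it was at 15.9 CPM (R820W), 17.2 CPM (N737H) and 20.1 CPM (I593T), against 23.1 CPM with WT. The B libraries gave 24.3 CPM (R820W), 35.7 CPM (N737H) and 54.0 CPM (I593T), against 17.6 CPM with WT, and I593T B was the highest library of all. CCND1, cyclin D1, the D-type cyclin that starts the passage through G1, was in A at 576 CPM (R820W), 446 CPM (N737H) and 547 CPM (I593T), against 606 CPM with WT. Letter B had 587 CPM (R820W), 758 CPM (N737H) and 1097 CPM (I593T), against 424 CPM with WT. MCM2, a further member of the helicase, was in A at 112 CPM (R820W), 104 CPM (N737H) and 106 CPM (I593T), against 119 CPM with WT. In B the levels were 157 CPM (R820W), 182 CPM (N737H) and 272 CPM (I593T), against 120.2 CPM with WT. These 3 genes shared 1 order in B, with I593T highest, then N737H, then R820W, and WT lowest, and were below WT in every variant library of A. That order in B held for 3 of 21 G1/S genes (14.3%) and 0 of 24 G2/M genes, against 6.16% of all genes, and in A for none of the 45, against 2.92% of all genes. Averaged over both letters with I593T, CCND1 had a log2 fold change of 0.67 ± 0.36 and TYMS of 0.86 ± 0.50, both with an adjusted p of 1 by edgeR. Without these 3 genes the ratio of G2/M to G1/S counts was 1.51, 1.44 and 1.26 with R820W, N737H and I593T in B, against 1.52 with WT, and 1.80, 2.00 and 1.94 in A, against 1.44 with WT.

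CCNE2, cyclin E2, which with CDK2 fires the entry to S phase, was the member with the smallest p for the mean of the variants. In A it was at 73.6 CPM (R820W), 74.9 CPM (N737H) and 78.8 CPM (I593T), against 134 CPM with WT. In B it was at 73.2 CPM (R820W), 68.5 CPM (N737H) and 71.5 CPM (I593T), against 72.6 CPM with WT. WT A alone stood apart, and the other libraries lay between 68.5 and 78.8 CPM. The log2 fold change for the mean of the variants was -0.49 ± 0.21 (adjusted p = 0.9999, edgeR). By variant it was -0.49 ± 0.26 with R820W, -0.53 ± 0.26 with N737H and -0.46 ± 0.26 with I593T, each with an adjusted p of 0.9999 or 1 in the same edgeR fit. CDC25A, the phosphatase that activates CDK2, was at 15.2, 14.9 and 17.4 CPM with R820W, N737H and I593T, against 19.2 CPM with WT, in A and 13.4, 13.6 and 14.5 CPM with R820W, N737H and I593T, against 15.4 CPM with WT, in B, and was below WT in each variant library of its letter. CDK4, the partner of the D cyclins, was at 237, 275 and 252 CPM with R820W, N737H and I593T, against 188 CPM with WT, in A and 276, 272 and 326 CPM with R820W, N737H and I593T, against 338 CPM with WT, in B. CDK4 thus turned as the G2/M genes did. CCNE1, E2F1 and CDT1 were low, at 0.836 to 2.05, 3.15 to 7.96 and 7.66 to 10.5 CPM, and CDK2 spanned 46.4 to 58.4 CPM.

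The last G1/S genes act in origin licensing and firing. CDC6, which loads MCM rings at origins, was at 207, 223 and 219 CPM with R820W, N737H and I593T, against 265 CPM with WT, in A and 199.9, 192 and 189.8 CPM with R820W, N737H and I593T, against 207 CPM with WT, in B. It was below WT with every variant in both letters, with a log2 fold change of -0.20 ± 0.14 for the mean of the variants (adjusted p = 0.9999, edgeR). CDC45, which joins the ring to form the active helicase, was at 87.9, 92.9 and 87.3 CPM with R820W, N737H and I593T, against 78.5 CPM with WT, in A and 91.7, 84.1 and 95.2 CPM with R820W, N737H and I593T, against 109 CPM with WT, in B. GINS2, of the GINS complex of the same helicase, was at 95.3, 108 and 103 CPM with R820W, N737H and I593T, against 89.9 CPM with WT, in A and 96.9, 93.7 and 107 CPM with R820W, N737H and I593T, against 113 CPM with WT, in B. Both were above WT in A and below WT in B with every variant.

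**Figure D3:**
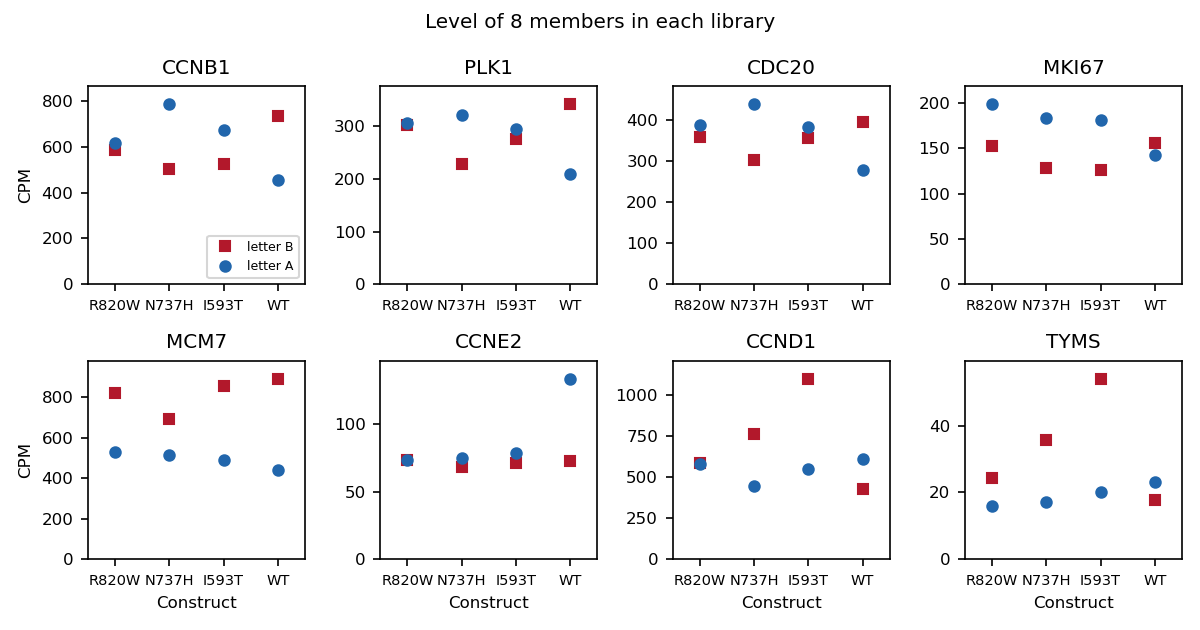
CPM of 8 genes by construct (variants left of WT), with 1 square for the B library and 1 circle for the A library, each axis starting at 0. CCNB1, PLK1, CDC20 and MKI67 show variants above WT in A and below WT in B; MCM7 is higher in B with every construct; CCNE2 is high in WT A alone; CCND1 and TYMS are highest in I593T B.

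The second comparison set the B libraries against the A libraries over the 4 constructs. G2/M genes were mostly lower in B, and the MCM genes had log2 fold changes above 0, which were small for MCM4 and MCM6. MCM7 was the one member past the threshold: in B it was at 819.97 CPM (R820W), 692 CPM (N737H) and 856 CPM (I593T), against 892 CPM with WT, and in A at 529.7 CPM (R820W), 514 CPM (N737H) and 490.4 CPM (I593T), against 440.3 CPM with WT. All B libraries were above all A libraries, with 815 ± 86.8 CPM in B and 494 ± 39.0 CPM in A (SD, n = 4 each) and a log2 fold change of 0.72 ± 0.11 (adjusted p = 0.0266, edgeR with the construct in the model). Over all genes 480 of 14834 passed (3.24%), 254 higher in B (1.71%) and 226 lower (1.52%), so 1 of 45 members is near the background. Groups that did not overlap were 4 higher and 2 lower of 21 G1/S genes and 0 higher and 2 lower of 24 G2/M genes, against 18.0% of all genes in either direction. The MCM7 call was lost without R820W A or R820W B and without I593T A or I593T B. Leaving out either library of a construct takes that construct out of this comparison, so its A and B omissions are not separate evidence. This also holds for the omissions given below for AP4M1, RPA3 and ORC5.

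MCM7 shares its locus on chromosome 7 with AP4M1, an adaptor-complex subunit, and with the microRNA genes MIR25, MIR93 and MIR106B, and whether the counting used strand is not given in the sources used here. AP4M1 was in B at 17.9 CPM (R820W), 16.3 CPM (N737H) and 20.0 CPM (I593T), against 20.8 CPM with WT and in A at 12.8 CPM (R820W), 11.3 CPM (N737H) and 12.7 CPM (I593T), against 12.3 CPM with WT. Its log2 fold change, 0.61 ± 0.11 (adjusted p = 0.0404, edgeR), stood near that of MCM7. Whether reads of one gene were counted for the other was not tested. This call was lost in all fits without an R820W, N737H or I593T library (adjusted p from 0.067 to 0.202).

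The other MCM genes also had log2 fold changes above 0, all with an adjusted p above the threshold, and the 6 had a median of 0.23. MCM4 at 0.074 ± 0.082 and MCM6 at 0.042 ± 0.084 were near level between the letters. MCM4 was lower in B with N737H, and MCM6 was lower in B with WT. MCM2 had 0.67 ± 0.20 (adjusted p = 0.111). Its log2 difference of B minus A was 0.49 with R820W, 0.81 with N737H and 1.35 with I593T, against 0.011 with WT. TYMS had 0.69 ± 0.28 (adjusted p = 0.194), higher in B with each variant but not with WT. CCND1 had 0.32 ± 0.24 (adjusted p = 0.463). It was higher in B with N737H and I593T (log2 differences of 0.76 and 1.00), near level with R820W (0.027) and lower with WT (-0.51). Lower in B were CENPE at -0.57 ± 0.13 (adjusted p = 0.0637), KIF23 at -0.38 ± 0.095 (0.0761), RRM2 at -0.31 ± 0.091 (0.109), MKI67 at -0.32 ± 0.12 (0.18) and CDC6 at -0.21 ± 0.086 (0.208). All these adjusted p-values are edgeR's. Of the 24 G2/M genes, 22 were lower in B with a median of -0.22, and of the 21 G1/S genes 13 were higher with a median of 0.074, against 53.6% higher and 0.030 over all genes.

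**Figure D4:**
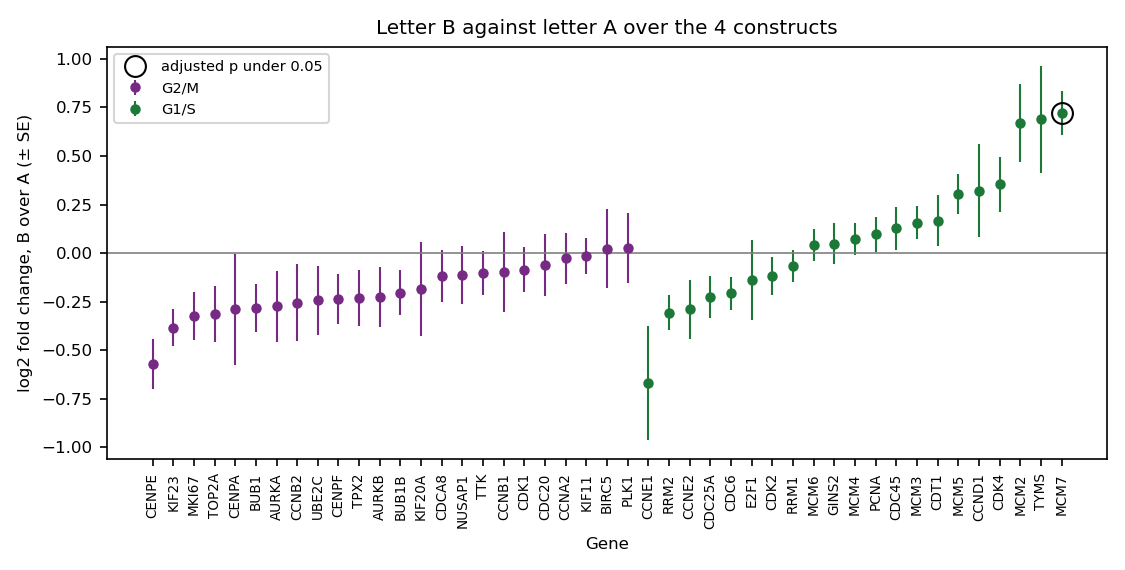
log2 fold change of letter B over letter A, over the 4 constructs, for the 24 G2/M genes (purple) and 21 G1/S genes (green), with bars of 1 standard error from edgeR and a ring around genes with an adjusted p under 0.05. MCM7 at 0.72 is ringed; CENPE at -0.57 and KIF23 at -0.38 are the lowest G2/M genes.

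B minus A was negative for most G2/M genes with the variants and positive for most with WT. It had a median over the G2/M genes of -0.15 with R820W (17 of 24 lower), -0.50 with N737H (23 lower) and -0.43 with I593T (24 lower), against 0.33 with WT (21 higher). When a WT library was left out, the comparison of letters rested on the variants alone. Leaving out WT A or WT B thus compared the same variant libraries, so the results of both fits are not separate evidence. The spread in them was that of the B minus A differences among the variants. Without WT A, 12 of 24 G2/M genes passed the threshold, all lower in B: MKI67, TOP2A, CCNB2, BUB1, AURKA, AURKB, CENPE, CENPF, KIF20A, KIF23, TPX2 and UBE2C. The 4 G1/S genes past it were MCM2, MCM7, RRM2 and TYMS. In that fit 1069 of 15592 genes passed (6.86%), 445 of them lower (2.85%). Without WT B, 11 G2/M genes passed, all but BUB1 of the same list, with 1010 of 15592 genes past the threshold (6.48%), 425 of them lower (2.73%).

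Genes of the same pathways outside the 45 gave few calls. CDKN1A encodes p21, the inhibitor of cyclin-dependent kinases that acts downstream of p53. In A it was at 356 CPM (R820W), 217 CPM (N737H) and 262 CPM (I593T), against 380.4 CPM with WT, and in B at 329 CPM (R820W), 173 CPM (N737H) and 273 CPM (I593T), against 334 CPM with WT. N737H was the lowest group, without overlap with WT, at -0.87 ± 0.17 (adjusted p = 1, edgeR). It passed the threshold by DESeq2 with the letter as a block (adjusted p = 0.000271) and in none of the other settings tried (0.163 to 1). CDKN1B, which encodes the inhibitor p27, was low, at 2.15 to 11.97 CPM, and CCNG1, cyclin G1, a p53 target, was at 39.7 to 52.1 CPM. Of the 10 tested inhibitors and growth-arrest genes, 7 were above WT with R820W, 5 with N737H and 6 with I593T, with 0 past the threshold by edgeR.

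Among 19 regulators of the RB, E2F and MuvB system 0 passed in any comparison. FOXM1, the factor of G2/M genes, was at 51.3, 48.5 and 44.7 CPM with R820W, N737H and I593T, against 37.6 CPM with WT, in A and 45.7, 40.7 and 49.6 CPM with R820W, N737H and I593T, against 50.9 CPM with WT, in B. MYBL2, which encodes B-MYB, was at 23.0, 22.5 and 23.2 CPM with R820W, N737H and I593T, against 20.0 CPM with WT, in A and 19.3, 19.5 and 26.5 CPM with R820W, N737H and I593T, against 22.5 CPM with WT, in B. RBBP4, a MuvB subunit, was at 249.6 to 283 CPM and TFDP1, the E2F partner, at 66.0 to 91.9 CPM. Of 53 other mitosis genes, 29 were above WT with R820W, 37 with N737H and 26 with I593T, and 35 were lower in B than in A, with 0 past the threshold. Within the letters most of them turned as the G2/M members did. In A, 41, 52 and 48 were above WT with R820W, N737H and I593T, with median log2 differences of 0.19, 0.39 and 0.27. In B, 40, 43 and 46 were below WT with R820W, N737H and I593T, with medians of -0.080, -0.25 and -0.24. BUB3, a checkpoint protein, was at 551 to 667 CPM and ANLN, the anillin of the cleavage furrow, at 338 to 589 CPM.

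Of 44 other replication genes, 36 were below WT with R820W, 31 with N737H and 33 with I593T, again with 0 past the threshold. FEN1, the flap nuclease, was at 342 to 442 CPM and POLD2, a subunit of polymerase delta, at 299 to 452 CPM. In B against A, RPA3, the small subunit of the single-strand binding protein RPA, was higher (0.57 ± 0.12, adjusted p = 0.0484) and ORC5, of the origin recognition complex, was lower (-0.48 ± 0.090, adjusted p = 0.0417, both edgeR). RPA3 was in B at 139 CPM (R820W), 149.8 CPM (N737H) and 166 CPM (I593T), against 199 CPM with WT, and in A at 103 CPM (R820W), 122 CPM (N737H) and 105 CPM (I593T), against 106 CPM with WT. ORC5 was in B at 51.2 CPM (R820W), 49.6 CPM (N737H) and 51.2 CPM (I593T), against 55.6 CPM with WT, and in A at 65.7 CPM (R820W), 72.9 CPM (N737H) and 66.4 CPM (I593T), against 85.1 CPM with WT. Without R820W or I593T libraries both calls were lost (adjusted p from 0.172 to 0.234), and ORC5 was also lost without N737H A or N737H B (0.086 and 0.083). The D-type cyclin CCND2, at 272 to 453 CPM, and the G1 kinase CDK6, at 50.6 to 74.8 CPM, did not pass in any comparison.

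Reads at some loci may be shared with neighbours. In RefSeq 18 of the 45 genes overlap another gene and 9 overlap a protein-coding one, among them TYMS with ENOSF1, CDK4 with TSPAN31, KIF20A with CDC23 and CCNA2 with EXOSC9. ENOSF1 had a log2 fold change of 0.088 for B over A (adjusted p = 0.707, edgeR), against 0.69 ± 0.28 for TYMS, and TSPAN31 was lower in B (-0.35, adjusted p = 0.162, edgeR) where CDK4 was higher (0.35 ± 0.14, adjusted p = 0.19).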

How the data were processed

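RNA was measured in 8 libraries, 2 for each of 4 plasmids. Per the labels, a mirVana kit served for RNA and the NEBNext Single Cell/Low Input kit for the libraries. The authors deposited raw read counts per gene symbol. In the submitters' processing notes hg19, FastQC, MACS2 and DESeq2 appear without roles. Aligner, counting method, annotation and strand setting: not given in the sources used here.

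From those counts, genes were kept by edgeR's filterByExpr (minimum count 10), which left 14834 of 28518 rows and 99.93% of counts; 5569 rows had no count. Counts, scaled by trimmed means of M values, were fitted with edgeR 4.0.16 (R 4.3.3) quasi-likelihood models on all 8 libraries. The comparisons with WT used group means (residual degrees of freedom 4), and that of the letters used construct and letter (3). All tests were two-sided, with Benjamini-Hochberg adjustment over the genes tested and a threshold of 0.05. Standard errors are the log2 fold change divided by the root of F. Differences within a letter are between log2 CPM values (prior count 2) and have no replicates. The fits were run on simulated counts with changes added to chosen genes. Those counts held no other difference between the letters, so they do not test the fits under such differences. Alternatives were other scalings and filters, DESeq2 1.42.0, limma voom 3.58.1, a replicate block, leaving out each library, and an interaction of construct and letter added after the data had been seen.

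The members and lists were chosen with earlier results of these data known. Values in every library are given for the 3 genes of highest mean CPM in each role, for any member past the threshold and for the members of smallest p. Of the other lists, genes past the threshold, the 2 of highest mean CPM, and CDKN1A, CDKN1B, FOXM1 and MYBL2 are named. CCNB2, MCM2 and the genes that overlap members were named after their values were seen. No 2 libraries were alike within sampling noise. Promoters come from RefSeq sequences on GRCh38.p14, a later build than that of the counts, and were joined by symbol only.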

Additional observations from a re-analysis of the deposited data

Results flagged for a closer look

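G2/M genes of the variant libraries lay mostly above WT in A and, under the main scaling, mostly below WT in B. They were higher than WT in A and lower than WT in B for 19 of 24 genes with R820W, 22 with N737H and 24 with I593T, against 27.2%, 29.0% and 26.5% of all genes tested. With library totals and no scaling factor, 11 of 24 were higher and 13 lower in B with R820W, and likewise with N737H. With I593T it was 1 higher and 23 lower. The G2/M medians in B were then -0.013, -0.086 and -0.25 with R820W, N737H and I593T, against 0.14, 0.19 and 0.057 for all genes. For a single variant the difference between the letters was not tested, since each construct has 1 library per letter. For the mean of the variants, edgeR's interaction of construct and letter, chosen after the pattern was seen, gave a median of -0.67 over the G2/M genes, and 0 of the 24 passed, with a smallest adjusted p of 0.111. At an unadjusted p under 0.05 there were 17, all negative, against 9.79% of all genes in that direction, and DESeq2 called 12 of the 24, against 651 of 22949 genes (2.84%). The 22949 genes include those below the filter on low counts, which all 24 G2/M genes passed. In the interaction fits WT has 1 library per letter, and the spread comes from treating the 3 variants of a letter as replicates. The p-values of these fits thus do not measure the spread between libraries of one construct. The 3 variants share the WT library of each letter. WT A was the lowest library for 7 of the 24 genes (29.2%), against 18.4% of all genes tested. I593T B was the lowest for 14 (58.3%), against 14.5% of all genes. N737H A was the highest for 21 (87.5%), against 7.59% of all genes.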

How the results depend on the processing

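Against WT, no member passed the threshold under any setting tried. Genes past it, 0 in each comparison, became 2 with R820W, 2 with N737H, 8 with I593T and 2 for the mean of the variants without the filter on low counts, and 3 with I593T by DESeq2. Leaving out 1 library gave 0 to 3 genes with I593T and 0 to 1 for the mean. The median of the G1/S genes with I593T was -0.039 under the stricter filter and -0.084 to 0.053 leaving out 1 library. That filter put 7, 9 and 9 G1/S genes above WT with R820W, N737H and I593T, against 4, 5 and 9 in the main fit. For the G2/M genes it gave 20, 24 and 19, against 19, 21 and 15. With the replicate block 17, 22 and 11 G2/M genes were above WT with R820W, N737H and I593T, and 13 were below WT with I593T. CDKN1A with N737H passed by DESeq2 with the replicate block (adjusted p = 0.000271); its other settings gave 0.163 to 1.

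For B against A, 480 genes became 760 without the filter, 1287 by DESeq2, 1324 with letter alone and 0 to 1069 leaving out 1 library (0 without R820W A, 10 without R820W B, 31 without I593T A, 32 without I593T B, 1069 without WT A, 1010 without WT B). The interaction gave 273 genes without the filter, 651 by DESeq2, 11 by limma voom and 8 to 352 leaving out 1 library. With library totals, 12 G2/M genes with R820W, 13 with N737H and 5 G1/S genes with R820W were higher in A and lower in B.

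The labels do not say that a letter marks a shared batch. Deviations from the group means correlated by 0.0242 between N737H and WT and by 0.312 to 0.41 in the other pairs. Between the letters 480 genes differed. Most pairs deviated together but not every pair did, so the main comparisons with WT did not take the letters as pairs. The differences within a letter and the interaction do set libraries of the same letter against each other. The turn between the letters can be read only so far as a letter marks libraries handled together, which was not tested. With the replicate block, edgeR called 0 genes in each comparison with WT, with 384, 670, 500 and 527 genes at an unadjusted p under 0.05 for R820W, N737H, I593T and the mean, and DESeq2 called 1, 20, 3 and 3. Causes were not tested. The number of libraries, 2 per group, limits the precision.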
